A study of Homo sapiens with 12 samples.

Results

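The SOX genes described here are SOX2, SOX4, SOX5, SOX6, SOX8, SOX9, SOX10, SOX11, SOX12 and SOX13. They were chosen by symbol, without regard to their values, and make up 10 of the 27514 genes listed in a table of expression in IMR32 cells. IMR32 is an established human neuroblastoma line that carries extra copies of MYCN. RNA sequencing was done on 12 samples, in 4 groups of 3, taken 72 h after siRNAs were delivered by Nucleofector, a form of electroporation. The siCtrl group received a control siRNA (labelled siCTR). The siMYCN group received an siRNA against MYCN (siMYCN_2) and the siHAND2 group an siRNA against HAND2 (siHAND2_3). The siMYCN+siHAND2 group, called the combined knockdown below, received siRNAs against both genes (siM2+siH2_3). All groups share the same line, transfection and culture time, the design has a single control siRNA, and the labels do not say whether the samples of a group came from separate cultures. The p-values therefore measure the spread between these samples, which may be technical. The design asks which genes depend on MYCN, on HAND2, or on both.

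SOX proteins bind DNA through a high mobility group (HMG) box that bends the helix, and they usually act together with a partner factor. They are sorted by sequence into groups. SOX2 belongs to the SoxB1 group and keeps stem and neural progenitor cells undifferentiated. SOX4, SOX11 and SOX12 form the SoxC group, which is active in immature neurons and in the developing sympathetic nervous system, the origin of neuroblastoma. SOX5, SOX6 and SOX13 form the SoxD group, which lacks an activation domain of its own and modifies the action of other SOX proteins. SOX8, SOX9 and SOX10 form the SoxE group, which acts in the neural crest and in Schwann cells and, in the case of SOX9, in cartilage.

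Expression is given as CPM, counts of reads relative to the size of the library. The SOX genes divided by level into 4 that were expressed well above the floor and 6 that were scarce. SOX4, SOX5, SOX11 and SOX12 averaged 1 CPM or more across the 12 samples, the level required for testing, which 12680 genes reached in all. SOX9 came nearest below it, at 1.03 CPM in siCtrl but less in the other groups. Counts of called members below refer to these 4 and not to all 10.

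The SoxC genes have related coding sequences, which matters for assigning reads to one of them. A stretch of 60 bases from their coding sequences, read from the GENCODE transcripts of GRCh37, is shown 5′ to 3′. It was picked as the stretch where SOX4 and SOX12 differ least from SOX11, so it is not typical of the whole sequences. Capitals mark the positions where the 3 genes are not all the same.
SOX4: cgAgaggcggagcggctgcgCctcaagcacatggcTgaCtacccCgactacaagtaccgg
SOX11: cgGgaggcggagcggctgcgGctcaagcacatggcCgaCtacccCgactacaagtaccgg
SOX12: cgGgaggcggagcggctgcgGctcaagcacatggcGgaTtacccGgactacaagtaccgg
In this window SOX4 and SOX11 are identical at 95% of positions, SOX11 and SOX12 also at 95%, and SOX4 and SOX12 at 91.7%. The longest run of identical bases anywhere in the canonical transcripts was 27 bases between SOX4 and SOX11, 33 between SOX4 and SOX12, and 35 between SOX11 and SOX12. No pair of the 10 members shared a run of 50 bases. The read length is not given in the sources used here.

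MYCN and HAND2 are basic helix-loop-helix proteins, a class that binds the E-box, whose letters are CANNTG. MYC family proteins favour CACGTG, and CATCTG is a form bound by HAND proteins with their partners. The 250 bases before the RefSeq transcript start (GRCh38.p14, each found once in hg19 at the coordinates given) are shown for the tested genes that have an entry, with every CANNTG in capitals. The motif reads as CANNTG on both strands, so a match covers both, and matches to CACGTG and CATCTG were sought on both strands as well and are also matches to CANNTG.
SOX4, chr6:21593732-21593981, + strand: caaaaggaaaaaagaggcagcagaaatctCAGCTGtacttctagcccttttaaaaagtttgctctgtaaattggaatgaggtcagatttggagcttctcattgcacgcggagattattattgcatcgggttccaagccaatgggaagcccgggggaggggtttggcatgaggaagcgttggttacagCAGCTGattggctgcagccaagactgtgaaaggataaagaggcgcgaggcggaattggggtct
SOX5, chr12:24715426-24715675, - strand: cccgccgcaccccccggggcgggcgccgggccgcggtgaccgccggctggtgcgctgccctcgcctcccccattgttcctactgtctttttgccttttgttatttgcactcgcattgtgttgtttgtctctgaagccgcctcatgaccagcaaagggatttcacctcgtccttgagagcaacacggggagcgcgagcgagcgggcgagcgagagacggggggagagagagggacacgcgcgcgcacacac
SOX12, chr20:305946-306195, + strand: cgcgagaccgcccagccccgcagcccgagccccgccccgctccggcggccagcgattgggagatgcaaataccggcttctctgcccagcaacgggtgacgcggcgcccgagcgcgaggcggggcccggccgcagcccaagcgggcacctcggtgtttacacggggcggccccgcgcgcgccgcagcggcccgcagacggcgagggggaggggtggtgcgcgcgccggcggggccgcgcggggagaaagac
The SOX4 window held 2 matches to CANNTG, both of them CAGCTG, and the SOX5 and SOX12 windows held none. None of the 3 windows held CACGTG or CATCTG. Of 35116 promoter windows of the same length, 61.8% held a CANNTG, 6.34% held CACGTG and 12.2% held CATCTG. The windows differ in base composition, with 48.8% G or C for SOX4, 65.6% for SOX5 and 79.2% for SOX12. SOX11 had no entry.

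The targeted genes checked the labels. MYCN stood at 1009 CPM ± 42.6 (SD, n = 3) in siCtrl and at 682 ± 22.8 in siMYCN. It was 849 ± 48.7 in siHAND2, where its samples lay below siCtrl as deposited but overlapped it after rescaling, and 482 ± 64.3 in the combined knockdown. HAND2 stood at 239 ± 15.3 in siCtrl and 326 ± 7.50 in siMYCN. It was 62.3 ± 7.06 in siHAND2 and 73.5 ± 11.1 with both siRNAs. Depth was estimated at 31.6 to 64.2 M reads in each library, and the listed genes took 18.2 to 37.5 M of them. Their share of all reads was 64.3 to 65.8% in siCtrl. It was 61.3 to 63.3% for siMYCN, 56.8 to 61.4% for siHAND2 and 44.3 to 58.4% for the combined knockdown, with the lowest value in its replicate 3. The CPM of a typical gene moved with it: the median log2 difference of all tested genes from siCtrl was 0.01 for siMYCN, -0.14 for siHAND2 and -0.28 for the combined knockdown. The log2 differences of the 4 tested members are therefore also given after rescaling every sample by its median ratio to the other samples, and other values are on the deposited scale unless said otherwise. Rescaling brought these medians to 0.01, 0.01 and 0.04. In bulk RNA, fewer cells that express a gene and less RNA per cell cannot be told apart.

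SOX4 and SOX11 were higher in all 3 knockdowns than in siCtrl. SOX12, the remaining SoxC gene, was lower in the combined knockdown. SOX5 was higher in siHAND2 and in the combined knockdown, and in siMYCN its samples overlapped those of siCtrl. In the test across all genes (limma on log2(CPM + 1), with a gene called at a Benjamini-Hochberg adjusted p under 0.05), 2 of the 4 tested members were called in siMYCN against siCtrl, both higher, where 33.7% of all tested genes were called with 17.4% higher and 16.3% lower. In siHAND2, 3 of 4 were called, all higher, against 42.7% of all genes called, with 12.3% higher and 30.4% lower. In the combined knockdown all 4 were called, 3 higher and 1 lower, against 67.4% of all genes called, with 17.4% higher and 50.1% lower. After rescaling, the shares of all genes called were 47.9%, 50.8% and 70.7% in either direction. They were not split by direction on that scale, so rescaled counts of higher or lower calls below have no share of the same direction beside them. Log2 differences below were taken between values of log2(CPM + 1), so that changes of low genes come out too small.

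**Figure D1:**
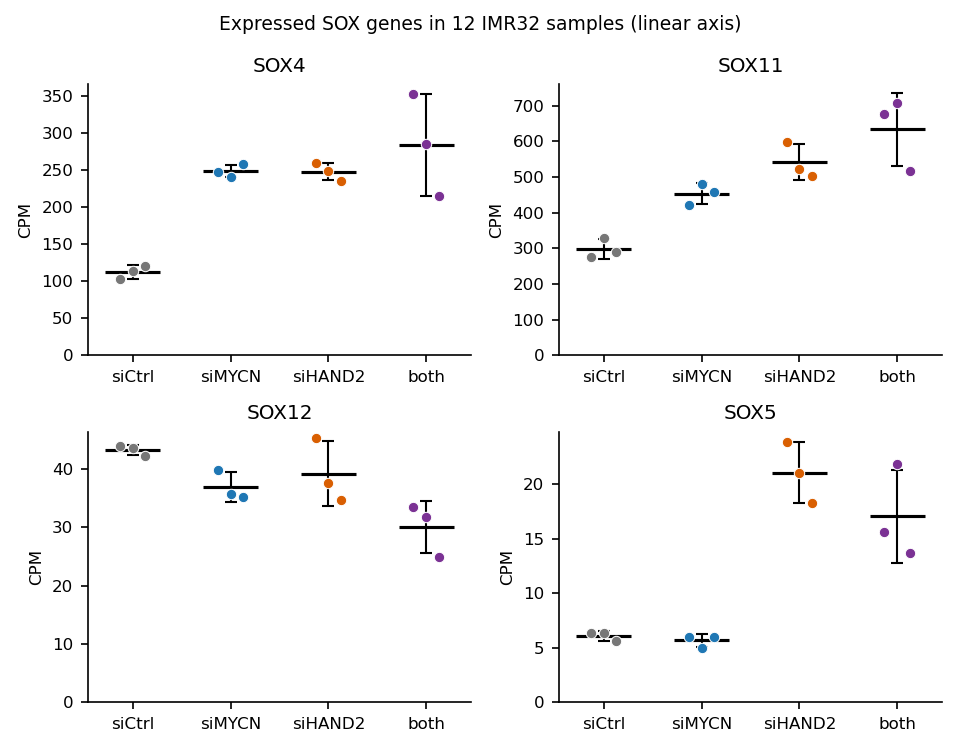
CPM of SOX4, SOX11, SOX12 and SOX5 (vertical axes, each starting at 0) in the 4 groups, with "both" standing for siMYCN+siHAND2. Points are the 3 samples of a group and the bar with whiskers is the mean ± SD. SOX4 and SOX11 points of every knockdown lie above all siCtrl points, SOX12 points of the combined knockdown lie below them, and SOX5 is high in siHAND2 and in the combined knockdown.

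SOX4 (6:21593982-21598850 in hg19, + strand, a gene of 1 exon) promotes survival of immature neurons and switches on neuronal genes. Its level was 103, 114 and 121 CPM in the siCtrl samples and 248, 241 and 258 CPM in siMYCN. It was 260, 249 and 236 CPM in siHAND2 and 353, 285 and 215 CPM in the combined knockdown. All 9 knockdown samples lay above all siCtrl samples, and the spread was widest in the combined knockdown, where replicate 1 was the highest and replicate 3 the lowest. The mean rose from 112 ± 9.17 CPM (SD, n = 3) in siCtrl to 249 ± 8.23 (siMYCN), 248 ± 11.8 (siHAND2) and 284 ± 69.1 (combined knockdown), or 2.22, 2.21 and 2.53 times siCtrl. The log2 differences were 1.14 for siMYCN, 1.14 for siHAND2 and 1.30 for the combined knockdown, each with an SE of 0.14 and limma adjusted p-values of 4.8e-07, 2.7e-07 and 5.7e-09. After rescaling they were 1.15, 1.30 and 1.66.

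The SOX4 levels of the 2 single knockdowns could not be separated. They differed by 0.01 on the log2 scale (95% interval -0.27 to 0.29, limma adjusted p = 0.98). The combined knockdown exceeded siMYCN by 0.16 (interval -0.12 to 0.44, limma adjusted p = 0.31) and siHAND2 by 0.17 (interval -0.11 to 0.45, limma adjusted p = 0.34), and neither difference was called. After rescaling both were called, at 0.51 (limma adjusted p = 5.5e-05) and 0.37 (limma adjusted p = 0.0011), when 56.7% and 49.7% of all genes were called in these comparisons. Without replicate 1 of the combined knockdown, on the deposited scale, these differences were -0.01 and -0.003, and without its replicate 3 they were 0.35 and 0.35 and were called (limma adjusted p of 0.0048 and 0.0061).

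The interaction asks whether the combined knockdown equals the sum of the 2 single knockdowns on the log2 scale. SOX4 was the only tested member called in it, where 4.01% of all genes were called with 3.65% negative (below the sum) and 0.355% positive. Its single knockdowns summed to 2.28, the combined knockdown gave 1.30, and the interaction was -0.98 (SE 0.19, limma adjusted p = 0.0040), so that the combined change was 57.2% of the sum. After rescaling the interaction was -0.79 (SE 0.11, limma adjusted p = 7.1e-04), with 6.14% of all genes called. With no filter on low values, which raises the number of genes tested, the coefficient stayed at -0.98 and the limma adjusted p was 0.068, and over all alternatives it ranged from 1.5e-04 to 0.068.

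SOX11 (2:5832516-5841517, + strand, also 1 exon) acts with SOX4 in sympathetic neuron precursors. It was the SOX gene with the most CPM in every sample. It stood at 275, 328 and 289 CPM in siCtrl and at 421, 480 and 457 CPM in siMYCN. The siHAND2 samples had 598, 521 and 503 CPM and the combined knockdown samples 678, 706 and 516 CPM. No knockdown sample reached down to the siCtrl samples, and the siHAND2 samples all lay above the siMYCN samples. The means were 297 ± 27.6, 453 ± 29.5, 541 ± 50.2 and 633 ± 102 CPM (SD, n = 3) in the order siCtrl, siMYCN, siHAND2 and combined, or 1.52, 1.82 and 2.13 times siCtrl. The log2 differences from siCtrl were 0.61, 0.86 and 1.08, each with an SE of 0.13 and limma adjusted p-values of 6.4e-04, 6.3e-06 and 5.3e-08. After rescaling they were 0.62, 1.02 and 1.44.

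Neighbouring SOX11 levels were separated less firmly. The combined knockdown was above siMYCN by 0.47 (limma adjusted p = 0.0029). It was above siHAND2 by 0.22 (interval -0.05 to 0.48, limma adjusted p = 0.18), which was not called, and by 0.42 after rescaling, which was (limma adjusted p = 0.0012). Without replicate 3 of the combined knockdown this difference was 0.36 on the deposited scale (limma adjusted p = 0.0067). The log2 difference of siMYCN from siHAND2 was -0.25 (interval -0.52 to 0.01, limma adjusted p = 0.13), and it was called after rescaling, at -0.40 (limma adjusted p = 0.0018). Its interaction was -0.39 (interval -0.76 to -0.02, limma adjusted p = 0.21) and -0.20 after rescaling (limma adjusted p = 0.34), and neither was called. Whether the interactions of SOX4 and SOX11 differ was not tested.

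SOX12 (20:306196-310868, + strand, 1 exon), the SoxC gene with the weakest activation domain, moved the other way. Its level was 43.9, 43.5 and 42.1 CPM in siCtrl and 39.8, 35.6 and 35.2 CPM in siMYCN. It was 45.3, 37.6 and 34.6 CPM in siHAND2 and 33.4, 31.7 and 24.96 CPM in the combined knockdown. The siMYCN and combined samples all lay below siCtrl, while replicate 1 of siHAND2 lay above it. The combined knockdown mean was 69.5% of siCtrl, with a log2 difference of -0.52 (SE 0.12, limma adjusted p = 5.8e-04). This fall is larger than the -0.28 of the median gene, and after rescaling it was -0.17, barely called (limma adjusted p = 0.0499). The value was not called with rescaling, no filter and a pseudocount of 0.1 together (limma adjusted p = 0.068). For siMYCN the difference was -0.22 (limma adjusted p = 0.17). It was -0.21 with a limma adjusted p of 0.027 once rescaled. In siHAND2 it was -0.15 (limma adjusted p = 0.35), and 0.01 after rescaling, so its direction there depends on the scale.

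SOX12 was also called lower in the combined knockdown than in each single knockdown, by a log2 difference of -0.30 from siMYCN (limma adjusted p = 0.040) and -0.37 from siHAND2 (limma adjusted p = 0.017). The first became 0.04 after rescaling (limma adjusted p = 0.64) and the second -0.18 (limma adjusted p = 0.055), so neither call held on that scale. The second was called on it when samples were also blocked by replicate number (limma adjusted p = 0.040). The first was also lost, at limma adjusted p-values of 0.050 to 0.16, on leaving out any siCtrl or siMYCN sample, siHAND2 replicate 2 or combined knockdown replicate 3, and the second without siHAND2 replicate 1 (-0.27, limma adjusted p = 0.13) or combined knockdown replicate 3 (-0.25, limma adjusted p = 0.051). An antisense gene, NRSN2-AS1, overlaps SOX12 in GENCODE, and whether the counting used strand is not given in the sources used here.

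SOX5 (12:23682438-24715478, - strand, 15 exons in the canonical transcript), the SoxD gene with the highest level here, controls the timing of neuron subtypes and supports SOX9 in cartilage. It stood at 6.33, 6.32 and 5.59 CPM in siCtrl and at 6.02, 5.01 and 6.02 CPM in siMYCN. It stood at 23.8, 21.0 and 18.2 CPM in siHAND2 and at 15.6, 21.8 and 13.7 CPM in the combined knockdown. Every sample that received the HAND2 siRNA lay above every sample that did not, and the siCtrl and siMYCN samples overlapped. The means were 6.08 ± 0.42, 5.68 ± 0.58, 21.0 ± 2.81 and 17.0 ± 4.25 CPM (SD, n = 3), or 3.46 times siCtrl in siHAND2 and 2.80 times in the combined knockdown. The log2 differences were 1.63 in siHAND2 (limma adjusted p = 6.2e-10) and 1.32 in the combined knockdown (limma adjusted p = 4.3e-09), and 1.77 and 1.65 after rescaling. The difference of siMYCN from siCtrl was -0.09 (limma adjusted p = 0.67).

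The SOX5 contrasts between knockdowns tested this difference directly. SOX5 was lower in siMYCN than in siHAND2 by a log2 difference of -1.72 (SE 0.14, limma adjusted p = 1.9e-10), the only call among the 4 members in that comparison. Of all genes 35% were called there, with 26.1% higher and 8.98% lower in siMYCN, and after rescaling, when the SOX5 difference was -1.85, the share was 44.5%. It was higher in the combined knockdown than in siMYCN by 1.41 (interval 1.13 to 1.69, limma adjusted p = 3.1e-09) and by 1.73 once rescaled, a comparison in which 3 of the 4 members were called, SOX5 and SOX11 higher and SOX12 lower. Of all genes 58.9% were called there, with 8.92% higher and 50% lower. Against siHAND2 the combined knockdown was at -0.31 (interval -0.59 to -0.03, limma adjusted p = 0.075), and at -0.12 after rescaling. In that comparison SOX12 alone was called, lower, where 40.3% of all genes were called, with 8.75% higher and 31.5% lower. SOX5 was called too when samples were blocked by replicate number, as were 46% of all genes. The SOX5 interaction was -0.22 (interval -0.62 to 0.18, limma adjusted p = 0.49) and -0.04 after rescaling, and neither was called.

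**Figure D2:**
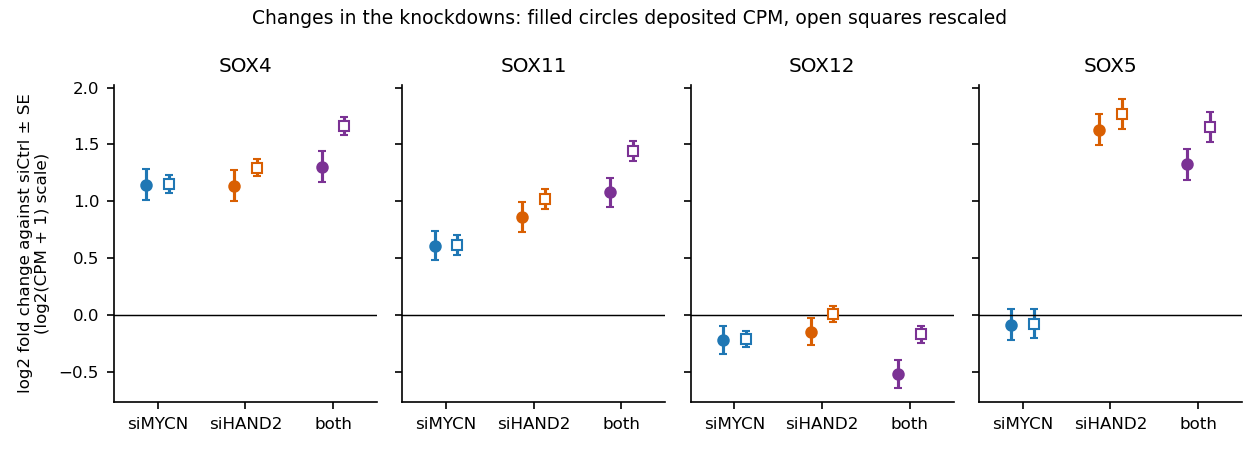
Log2 difference from siCtrl on the log2(CPM + 1) scale (vertical axis) for SOX4, SOX5, SOX11 and SOX12 in each knockdown, with whiskers of 1 SE; filled circles are deposited values and open squares are values after rescaling by the median ratio. SOX4 and SOX11 are above 0 in every knockdown on both scales, SOX5 is near 0 in siMYCN, and SOX12 in siHAND2 changes sign with the scale.

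Levels of different genes can be set side by side only per length, here as CPM per kb of the canonical GENCODE transcript. In siCtrl the order was SOX11 at 33.0, SOX4 at 23.1, SOX12 at 9.24 and SOX5 at 0.860 CPM per kb. SOX9 followed at 0.263 and SOX2 at 0.230, which overlapped in spread, and SOX10, SOX8, SOX13 and SOX6 lay at 0.0923 or below. In siMYCN SOX4 and SOX11 were at 51.2 ± 1.69 and 50.3 ± 3.27 CPM per kb (SD, n = 3), a difference smaller than their spread. In siHAND2 SOX11 led with 60.1 ± 5.57 against 51.0 ± 2.42 for SOX4. In the combined knockdown they were 70.4 ± 11.4 and 58.4 ± 14.2, which overlapped in spread across libraries. Within each of these libraries SOX11 was the higher, with SOX4 at 0.963, 0.746 and 0.769 of it in replicates 1 to 3.

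Ratios within a library do not depend on how that library is scaled. The ratio of SOX4 to SOX11 per kb averaged 0.702 ± 0.067 (SD, n = 3) over the siCtrl samples and 1.02 ± 0.082 over the siMYCN samples. It averaged 0.851 ± 0.042 over the siHAND2 samples and 0.826 ± 0.12 over the combined knockdown samples. Samples of both single knockdowns lay above all siCtrl samples (exact permutation p = 0.1 each, two-sided, the smallest that 3 against 3 samples allow), and those of the combined knockdown overlapped them (exact permutation p = 0.3). The ratio of SOX12 to SOX11 was 0.282 in siCtrl. It was 0.158 for siMYCN, 0.139 for siHAND2 and 0.0915 for the combined knockdown, with every knockdown sample below every siCtrl sample (exact permutation p = 0.1 each). The ratio of SOX12 to SOX4 also lay below siCtrl in all of them, at 0.154, 0.164 and 0.112 against 0.402 (exact permutation p = 0.1 each). The ratio of SOX5 to SOX11 was 0.0262 in siCtrl, lower in all siMYCN samples at 0.0161, and higher in all samples of siHAND2 at 0.0494 and of the combined knockdown at 0.0341 (exact permutation p = 0.1 each).

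The summed level of the 3 genes was 65.3 ± 4.10 CPM per kb (SD, n = 3) in siCtrl, against 109 ± 2.67 for siMYCN, 119 ± 9.05 for siHAND2 and 135 ± 25.2 for the combined knockdown. SOX12 made up 14.2% of this sum in siCtrl but 7.23% for siMYCN, 6.99% for siHAND2 and 4.78% for the combined knockdown. SOX4 made up 35.3% in siCtrl and 42.7 to 46.8% in the knockdowns. SOX11 made up 50.5% in siCtrl and 46.0 to 52.3% in the knockdowns.

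**Figure D3:**
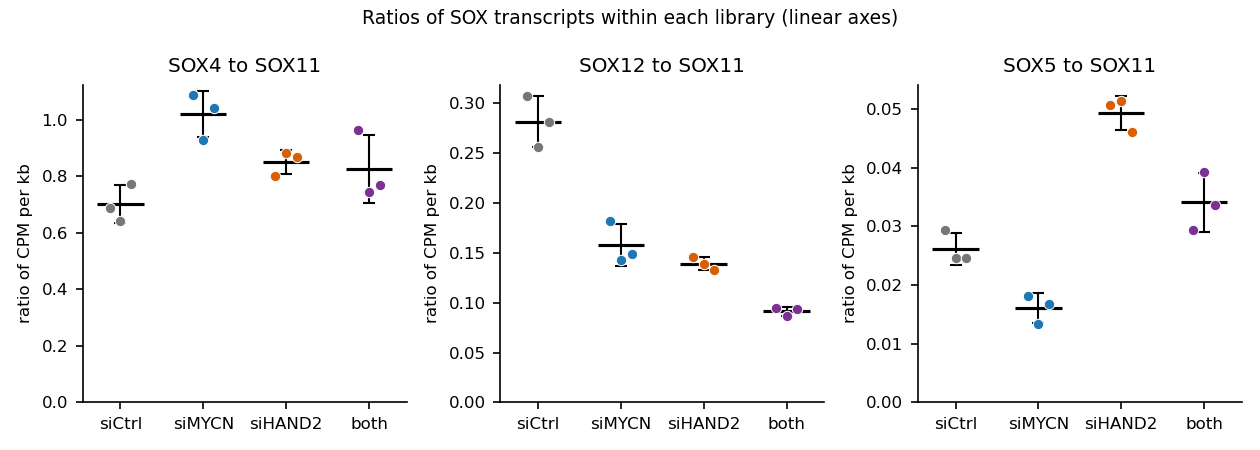
Ratios of CPM per kb within each library (vertical axes, starting at 0) for SOX4 to SOX11, SOX12 to SOX11 and SOX5 to SOX11 in the 4 groups, with "both" standing for siMYCN+siHAND2. Points are samples and the bar with whiskers is the mean ± SD. The SOX12 to SOX11 ratio is below siCtrl in every knockdown sample, and the SOX5 to SOX11 ratio is below siCtrl in siMYCN and above it in both groups that received the HAND2 siRNA.

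The 6 remaining members had few reads. SOX6, SOX8 and SOX13 were at or near the limit of detection, where 3 reads are worth 0.0468 to 0.0949 CPM depending on the depth of the sample. None of the 6 passed the filter, and fits without it are quoted for SOX2 and SOX9. The fits without filter at a pseudocount of 0.1 were chosen after the data had been seen, and intervals and limits from reads cover counting error only.

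SOX2 (3:181429713-181432224, + strand), the progenitor factor, was low in siCtrl and lower in every knockdown. Its level was 0.661, 0.411 and 0.662 CPM in siCtrl, 0.343, 0.0741 and 0.282 CPM in siMYCN, 0.0316, 0.0883 and 0.119 CPM in siHAND2, and in the combined knockdown 0.203, 0.0259 and 0.122 CPM. All 9 knockdown samples lay below all siCtrl samples (exact permutation p = 0.1 for each knockdown). The values rest on an estimated 80 reads over the 3 siCtrl samples, 28 for siMYCN, 9 for siHAND2 and 19 for the combined knockdown. Fitted with all genes and no filter, the log2 differences on the log2(CPM + 0.1) scale were -1.11 for siMYCN (limma adjusted p = 0.070), -1.92 for siHAND2 (limma adjusted p = 0.0033) and -1.71 for the combined knockdown (limma adjusted p = 0.0031). In these fits 18.2%, 24.8% and 45.6% of all genes were called. Rescaled as well, they were -1.08, -1.80 and -1.49, of which the last 2 were called, as were 30.9% and 49.9% of all genes. With the pseudocount of 1 and no filter, SOX2 was called lower in siMYCN too (limma adjusted p = 0.020, with 18.4% of all genes called). The transcript SOX2-OT, which overlaps SOX2 on the same strand, had a mean of 0.0201 CPM.

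SOX9 (17:70117161-70122557, + strand), the cartilage and neural crest stem cell factor, was at 1.38, 1.10 and 0.627 CPM in siCtrl and at 1.00, 1.04 and 0.588 CPM in siMYCN. It was at 0.791, 0.235 and 0.262 CPM in siHAND2 and at 0.218, 0.363 and 0.244 CPM in the combined knockdown. The combined knockdown samples all lay below siCtrl, whereas siHAND2 replicate 1 lay within the siCtrl range. On the log2(CPM + 0.1) scale without filter, the differences were -1.19 in siHAND2 (limma adjusted p = 0.042) and -1.56 in the combined knockdown (limma adjusted p = 0.0057). After rescaling they were -1.05 (limma adjusted p = 0.064, no longer called) and -1.26 (limma adjusted p = 0.018).

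SOX10, which marks migrating neural crest and Schwann cells, had mean levels of 0.266 CPM in siCtrl, 0.229 for siMYCN, 0.403 for siHAND2 and 0.384 for the combined knockdown, from 28 to 53 estimated reads per group. The groups overlapped siCtrl on the deposited scale, while after rescaling the siHAND2 samples lay above it. SOX10 overlaps POLR2F on the other strand, which had a mean of 31.7 CPM, so its few reads cannot be assigned with certainty. SOX8, its SoxE relative, had means of 0.0543 to 0.119 CPM from 8 to 16 reads per group. SOX13, a SoxD gene, had means of 0.0341 to 0.0946 CPM from 4 to 13 reads per group and was at 0 in 2 samples. SOX6, the SoxD partner of SOX5 in cartilage, was at 0 in all siCtrl samples, where a count of 0 allows up to 3 reads, and had a single read in each of 3 knockdown samples. The combined knockdown samples of SOX8 and SOX13 all lay below siCtrl on the deposited scale (exact permutation p = 0.1 each), at 5 reads or fewer per sample. After rescaling those of SOX8 still did (exact permutation p = 0.1), and those of SOX13 overlapped siCtrl (exact permutation p = 0.2). For SOX6 no difference was detectable at this depth.

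**Figure D4:**
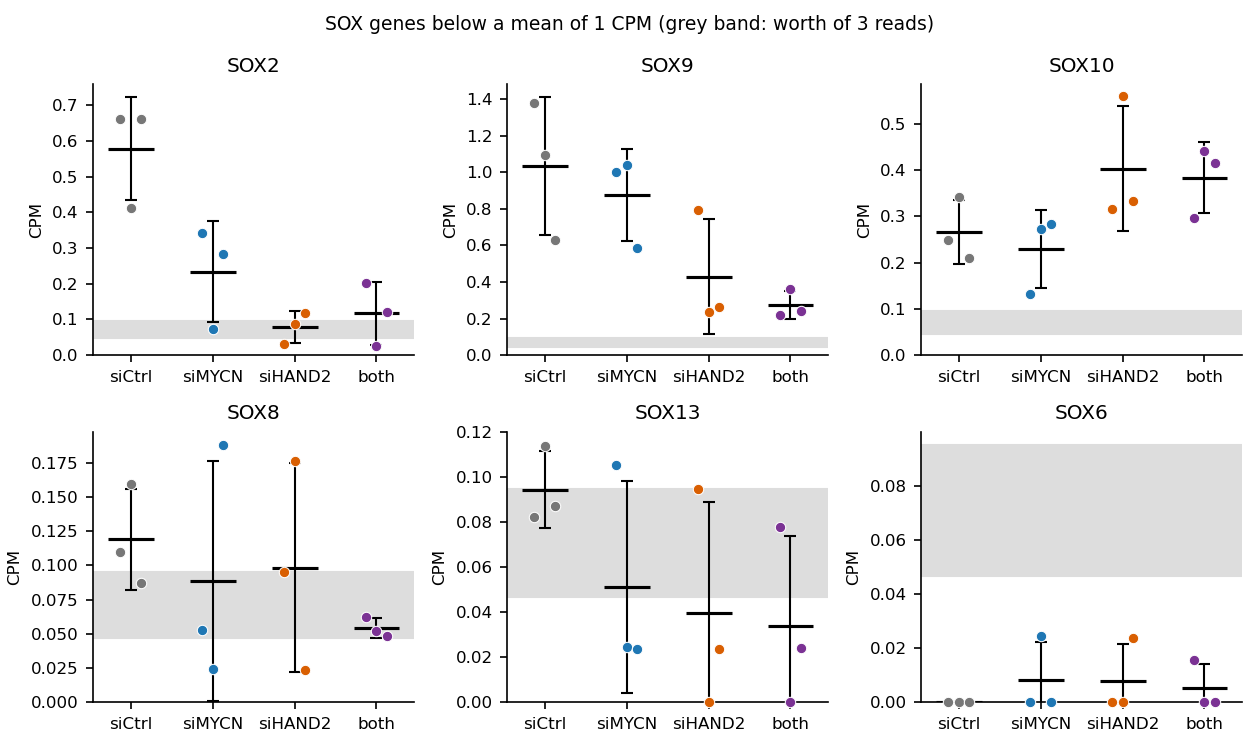
CPM of SOX2, SOX9, SOX10, SOX8, SOX13 and SOX6 (vertical axes starting at 0) in the 4 groups, with "both" standing for siMYCN+siHAND2. Points are samples, bars with whiskers are mean ± SD, and the grey band is the worth of 3 reads over the samples. SOX2 lies below siCtrl in all 9 knockdown samples and SOX9 in all 3 combined knockdown samples. SOX2 has samples in or below the band in every knockdown, and SOX8, SOX13 and SOX6 have them in all 4 groups.

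The other SOX genes were also scarce. Of 9 listed, none reached the level for testing, and SOX3, SOX14 and SOX17 had no read in any sample. SOX7, SOX15 and SOX18 had means of 0.608, 0.747 and 0.576 CPM over the 12 samples, and on the deposited scale their groups overlapped siCtrl. After rescaling, the SOX15 samples of the combined knockdown lay above siCtrl. SOX1, SOX21 and SOX30 had 1, 2 and 3 estimated reads in all.

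Genes linked to SoxC function were described by counts. The list of 6 neuronal genes known to depend on or act with SoxC factors (TUBB3, MAP2, DCX, TEAD2, NEUROD1 and PROX1) was tested in full. In siMYCN 3 were called higher and none lower, against 17.4% and 16.3% of all tested genes. In siHAND2 4 were called higher and 1 lower, against 12.3% and 30.4% of all tested genes. The combined knockdown had the same counts as siHAND2, against 17.4% and 50.1% of all tested genes. The median log2 differences of the list were 0.40, 0.67 and 0.48, against 0.01, -0.14 and -0.28 for all tested genes. After rescaling the medians were 0.41, 0.82 and 0.83, and 5 of 6 were called higher in siHAND2 and in the combined knockdown. On that scale 50.8% and 70.7% of all tested genes were called there in either direction.

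DCX, which encodes doublecortin, the microtubule protein of migrating neurons, rose from 66.0 ± 7.47 CPM (SD, n = 3) in siCtrl to 203 ± 13.2 (siMYCN), 228 ± 48.0 (siHAND2) and 293 ± 64.5 (combined knockdown), with log2 differences of 1.61, 1.76 and 2.12. TUBB3, the neuronal tubulin, rose from 134 ± 6.13 to 249 ± 10.5, 273 ± 7.03 and 457 ± 106 CPM, with log2 differences of 0.89, 1.03 and 1.74. MAP2, a dendrite protein, rose by 0.62, 0.47 and 0.52. TEAD2, a transcription factor of progenitor cells, moved the other way, with log2 differences of -0.23 for siMYCN (limma adjusted p = 0.11), -0.43 for siHAND2 and -0.83 for the combined knockdown, the last 2 called. PROX1 was called higher in siHAND2 (0.86) and in the combined knockdown (0.44), and NEUROD1 was not called on the deposited scale.

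Genes linked to the SoxE group were described in the same way. Of 13 neural crest transcription factors, 6 were tested: 1 was called higher and 1 lower in siMYCN, 5 lower in siHAND2 and all 6 lower when both siRNAs were given, against 17.4% of all tested genes higher and 16.3% lower in siMYCN, 30.4% lower in siHAND2 and 50.1% lower with both. Their median log2 differences were 0.08, -0.70 and -0.93, against 0.01, -0.14 and -0.28 for all tested genes. After rescaling they were 0.08, -0.55 and -0.69, with 5 lower in siHAND2 and in the combined knockdown. There 50.8% and 70.7% of all tested genes were called in either direction. In the combined knockdown MYB fell by 1.44 on the log2 scale, ETS1 by 1.42, MSX2 by 1.04 and TWIST1 by 0.83. Of 13 Schwann and glial genes, 3 were tested. NGFR, a neurotrophin receptor, fell by 1.73 in the combined knockdown and PMP22, a myelin protein, by 1.49. NGFR and PMP22 were also called lower in siHAND2, with log2 differences of -1.90 and -1.34. Of 10 chondrocyte genes only COL9A2 was tested, and of 8 POU and PAX partners of SOX proteins only POU2F1, and neither was called against siCtrl on the deposited scale. After rescaling COL9A2 was called higher in siHAND2 (0.28) and with both siRNAs (0.47), and POU2F1 higher in siHAND2 (0.45).

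Marker levels of other cell types moved with the groups. The summed CPM of the 13 Schwann and glial genes was 73.9 to 81.0 in siCtrl, 79.3 to 90.1 for siMYCN, 24.5 to 24.97 for siHAND2 and 20.6 to 34.8 for the combined knockdown. Most of it came from NGFR and PMP22, while CDH19 was at 0 in 10 of the 12 samples and MBP in 1, and ERBB3 and S100B had means of 0.382 and 0.442 CPM. The summed CPM of 9 mesenchymal markers was 269 to 297 in siCtrl, 225 to 275 for siMYCN, 127 to 157 for siHAND2 and 75.2 to 135 for the combined knockdown. Of these 9 genes, 5 were tested, none was called in siMYCN, and all 5 were called lower in siHAND2 and in the combined knockdown, where 30.4% and 50.1% of all tested genes were. After rescaling 1 was called lower in siMYCN, 5 in siHAND2 and 4 with both siRNAs, where 47.9%, 50.8% and 70.7% of all tested genes were called in either direction. PRRX1 was at 0 throughout. The summed CPM of 9 noradrenergic identity markers, the identity that IMR32 is known for, was 765 to 822 in siCtrl, 1033 to 1064 for siMYCN, 716 to 762 for siHAND2 and 569 to 866 for the combined knockdown. These include HAND2 itself, which fell from 239 to 62.3 CPM in siHAND2. Of the 9 markers 8 were tested. In siMYCN 7 were called higher, and in siHAND2 and with both siRNAs 3 were called higher and 3 lower. Of all tested genes, 17.4% were higher in siMYCN, 12.3% higher and 30.4% lower in siHAND2, and 17.4% higher and 50.1% lower with both. After rescaling 8 were called higher in siMYCN, 4 higher and 3 lower in siHAND2, and 5 higher and 3 lower with both. The shares of all tested genes in either direction were again 47.9%, 50.8% and 70.7%. In siCtrl the enzyme genes TH and DBH were at 0.120 and 2.65 CPM, and in siHAND2 at 1.07 and 0.929 CPM. The part of any of these in the SOX values was not tested.

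The genes whose log2 values across the 12 samples were most like each tested member were listed as a description, since the samples share 4 groups. For SOX4 they were PNRC1 (Pearson r = 0.991) and FAIM2 (0.990). For SOX11 they were ADGRL3 (0.993) and DGKI (0.983), for SOX5 LRRN1 (0.989) and SV2C (0.986), and for SOX12 SYMPK (0.985) and PGAP2 (0.979). Among the members themselves r was 0.925 between SOX4 and SOX11, 0.754 between SOX5 and SOX11, 0.552 between SOX4 and SOX5, and -0.546 between SOX11 and SOX12. Rescaling moved these to 0.939, 0.831, 0.675 and -0.257.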

How the data were processed

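RNA from 12 samples of IMR32 cells was sequenced, in 4 groups of 3 set by the sample titles. The authors deposited 1 table of CPM with a constant of 0.0001 added, which was subtracted. STAR 2.5.1, Partek and hg19 are named in the submitters' processing notes. The counting tool, its use of strand and the annotation are not given in the sources used here. Depth was estimated from the most frequent lowest step between CPM values. Divided by that step, values were whole within 0.05 in 89.0 to 90.6% of cases under 20 reads and in 80.0 to 81.4% of cases between 20 and 200 reads, so no count test was run.

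Log2(CPM + 1) of the 12680 genes that averaged 1 CPM or more was fitted by limma 3.58.1 (lmFit and eBayes, trend on) in R 4.3.3, over all 12 samples with 8 residual degrees of freedom and 7 contrasts. P-values are two-sided and Benjamini-Hochberg adjusted over all genes tested. The fit was tested on simulated data. For rescaling, each sample was divided by the median of its ratios to the genes' geometric means, taken from 10192 genes that averaged 5 CPM or more. Gene positions and lengths are from GENCODE release 44 on GRCh37.

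The members were chosen by symbol, and the lists were chosen with earlier results of these data known. All members are named, with MYCN and HAND2, the other SOX genes, and up to 4 genes of each list, those called in the combined knockdown with the largest log2 difference; PROX1, NEUROD1 and the markers at or near 0 were added after their values were seen. Some genes that the rule covers are left out of the text. Genes like a member were the 2 with the highest Pearson r, among genes that averaged 5 CPM or more.

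The titles give replicate numbers 1 to 3 in every group. Deviations from the group means correlated between samples of the same number at 0.147 to 0.44 for siCtrl and siMYCN and at 0.137 to 0.33 for siMYCN and siHAND2, over 0.1 in every pair. For the other pairs of groups at least 1 correlation was lower. Alternatives were a replicate block, other pseudocounts and filters, only the compared groups, no trend, both scalings and each sample left out.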

Additional observations from a re-analysis of the deposited data

Results flagged for a closer look

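The SOX4 interaction was singled out because the effect of one siRNA differed with the presence of the other. The interaction was -0.98 on the log2 scale (SE 0.19, limma adjusted p = 0.0040), and 4.01% of all tested genes were called in it. The log2 difference was 1.14 in each single knockdown and 1.30 in the combined knockdown. Leaving out each sample in turn gave -1.15 to -0.79.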

How the results depend on the processing

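Of 640 values of the 4 tested members under the alternatives, 568 kept their direction and side of the threshold, 21 lost a call, 32 gained a call and 19 changed sign. Many of the 640 could not change sign. Another filter, no trend, the block alone or only the compared groups leaves the log2 difference of a member as it was. So does leaving out a sample of a group that is not compared. In these cases only the call could change. The 6 low members, which have no test with the filter, are not in this tally. The number of members called changed by over 1.5 times in these cases. In siHAND2 against siCtrl it was 5 of 10 with no filter, with either pseudocount, against 3 of 4 with it, since SOX2 and SOX9, tested only without the filter, were called lower (24.8% of all genes were called with no filter and a pseudocount of 0.1). In the combined knockdown against siMYCN it was 5 of 10 with no filter, a pseudocount of 0.1 and rescaling, against 3 of 4. In the combined knockdown against siHAND2 it was 1, but 0 with only the compared groups, and 2 with either scaling or with no filter, a pseudocount of 0.1 and rescaling; leaving out 1 sample gave 0 to 2, with 0 without siHAND2 replicate 1 and 2 without siHAND2 replicate 3 or combined knockdown replicates 2 or 3. In siMYCN against siHAND2 it was 1, but 2 with only the compared groups or the sum over listed genes, and 3 with rescaling, with or without the block or with no filter and a pseudocount of 0.1; leaving out 1 sample gave 1 to 2, with 2 without combined knockdown replicate 3. In the interaction it was 1 of 4, but 0 of 10 with no filter at either pseudocount. With the filter, deposited and rescaled, 58.9% and 56.7% of all genes were called in the combined knockdown against siMYCN, and 40.3% and 49.7% against siHAND2. In siMYCN against siHAND2 they were 35% and 44.5%, and in the interaction 4.01% and 6.14%. Shares were not taken for most other settings, and counts there cannot be set against all genes.

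With the replicate block, 2 members were called in the combined knockdown against siHAND2, SOX5 (log2 difference -0.31, limma adjusted p = 0.036) beside SOX12, and 3 with the block and rescaling together, SOX4 and SOX11 higher and SOX12 lower. The block alone changed no other count of members called.

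Changes of sign came mostly from scaling. For SOX12, rescaling gave 0.0092 in siHAND2 against siCtrl, with or without the block (0.0093 also without filter at a pseudocount of 0.1). It gave 0.043 in the combined knockdown against siMYCN (0.044 likewise) and 0.034 in the interaction (0.035 likewise), which was 2.6e-06 with the sum over listed genes. For SOX4 in siMYCN against siHAND2, rescaling gave -0.144 (-0.144 also without filter) and the sum over listed genes -0.064, and leaving out 1 sample gave -0.029 to 0.039. Leaving out 1 sample gave -0.0095 to 0.35 for SOX4 in the combined knockdown against siMYCN and -0.0034 to 0.35 against siHAND2, and -0.16 to 0.030 for SOX12 in siMYCN against siHAND2. The 2 settings that joined no filter with a pseudocount of 0.1 were chosen after seeing the data. Depth limited the 6 low members, whose means rest on at most 134 estimated reads per group.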

Other observations

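The nearest tested genes on either side of the 4 tested members, looked up after the member values were known, did not all move with them. Near SOX11, LOC400940, which lies 281 kb away, had log2 differences from siCtrl of 0.28 for siMYCN (not called), 1.13 for siHAND2 and 1.09 for the combined knockdown, the last 2 called higher by limma. Near SOX5, BCAT1, which encodes an enzyme of branched-chain amino acid metabolism and lies 247 kb away, had differences of -0.84 in siMYCN and -1.13 in the combined knockdown, both called lower, and -0.09 in siHAND2 (not called). Near SOX4, CDKAL1, which lies 361 kb away, had differences of 0.22, 0.14 and -0.07 and was not called on the deposited scale; after rescaling it was called higher in all 3 knockdowns, at 0.23, 0.29 and 0.28. Near SOX12, NRSN2, which lies 16.5 kb away, was called higher in siMYCN, by 0.43, where SOX12 was at -0.22. Among the neighbours on the other sides, NRSN1 (SOX4) was called lower in siHAND2, at -0.64, and with both siRNAs, at -0.74. ETNK1 (SOX5) and COLEC11 (SOX11) were called only with both siRNAs, at 0.26 and -0.39. NRSN2-AS1, at 0.318 kb by the deposited coordinates nearer to SOX12 than NRSN2, was not called against siCtrl on the deposited scale.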
